A study of Mus musculus with 24 samples.

Results

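The 9 genes Irs1, Irs2, Pck1, G6pc, Slc2a2, Fbp1, Gys2, Ppp1r3b and Ppp1r3c, which serve insulin signalling, glucose production and glycogen storage in the liver, were followed in mice lacking both Rev-erb receptors in the liver and in wild-type mice. All probes annotated to these genes were taken, 11 of the 25697 on the array, and all 9 genes were among the 7272 that passed the filter on dim probes. Total liver RNA was taken at 6 times of day from male C57Bl6/J mice aged 20 weeks. Times are given as ZT, the hours after lights on, and ran from ZT0 to ZT20 in steps of 4 h. Wild-type (WT) mice were of the line Reverbalpha/beta Alb Cre-, and double knockout (DKO) mice were its Alb Cre+ counterparts, in which a Cre recombinase driven by the albumin promoter acts in hepatocytes and other liver cells keep the receptors. Each genotype and time was 1 RNA sample on 2 technical replicate arrays, which were averaged, so that 24 arrays gave 12 values, 6 per genotype. The number of animals per sample was not given in the sources used here. Adjusted p-values come from limma fits in which the 6 times take the place of replicates, so they measure only the spread between these samples.

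Insulin binds its receptor on hepatocytes, which phosphorylates the docking proteins IRS1 and IRS2. These recruit a lipid kinase that turns on AKT, and AKT restrains the gene program of glucose production and favours glycogen synthesis. Between meals the liver makes glucose from lactate, glycerol and amino acids through PEPCK (Pck1), fructose bisphosphatase (Fbp1) and glucose 6-phosphatase (G6pc), and glucose crosses the cell membrane through GLUT2 (Slc2a2). Glycogen is built by liver glycogen synthase (Gys2), which is switched on when protein phosphatase 1 is brought to glycogen by targeting subunits such as those encoded by Ppp1r3b and Ppp1r3c. Rev-erb alpha and beta are nuclear receptors that repress transcription within the circadian clock, and feeding in mice is concentrated in the dark phase.

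Of the 9 genes, 7 had a promoter in the RefSeq table used here (GRCm38.p6), and the 250 bases before the start of transcription were searched for short motifs. The motif CACGTG, the palindromic E-box read by the clock activators CLOCK and BMAL1 and by other factors, was found in 3 of the 7, Irs1, Irs2 and Ppp1r3c. It was present in 6.02% of 32851 promoters. These 3 promoters are shown with each E-box in capitals. In the daily mean Irs1 and Irs2 were called higher in DKO and Ppp1r3c was not called, and a link to the E-box was not tested.
Irs1 chr1:82291440-82291689, minus strand: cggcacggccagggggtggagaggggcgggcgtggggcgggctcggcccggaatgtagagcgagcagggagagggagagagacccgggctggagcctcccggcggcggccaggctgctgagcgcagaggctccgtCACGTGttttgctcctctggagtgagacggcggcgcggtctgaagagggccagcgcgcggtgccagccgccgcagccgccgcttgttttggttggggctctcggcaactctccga
Irs2 chr8:11008930-11009179, minus strand: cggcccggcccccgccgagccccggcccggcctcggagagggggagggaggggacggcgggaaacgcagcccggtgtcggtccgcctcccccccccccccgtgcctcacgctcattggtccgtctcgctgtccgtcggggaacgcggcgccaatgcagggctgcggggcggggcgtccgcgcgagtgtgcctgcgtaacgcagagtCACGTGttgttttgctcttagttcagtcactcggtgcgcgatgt
Ppp1r3c chr19:36736605-36736854, minus strand: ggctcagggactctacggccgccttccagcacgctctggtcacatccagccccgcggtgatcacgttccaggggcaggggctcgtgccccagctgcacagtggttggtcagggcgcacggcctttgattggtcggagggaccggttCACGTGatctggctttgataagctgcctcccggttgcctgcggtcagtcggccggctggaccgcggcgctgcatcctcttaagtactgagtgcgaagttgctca
The E-box spans the bases 115 to 110 before the start in Irs1, 44 to 39 in Irs2 and 104 to 99 in Ppp1r3c.

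The half-site AGGTCA, which Rev-erb and ROR receptors read, was found on either strand in 2 of the 7 promoters, G6pc and Slc2a2, and in 14% of all promoters. In G6pc it lay on the opposite strand and carried the preceding T of the longer form TAGGTCA, which contains the half-site and was present in 2.23% of promoters. The Pck1 promoter held TNACGTCA, a cyclic AMP response element through which glucagon signalling acts on this gene, as did 2.52% of promoters. The spelling of this motif was widened after the Pck1 promoter had been read. These 3 promoters belong to a glucose-producing enzyme that did not pass the test, a transporter that fell and an enzyme that fell, and their motifs are in capitals.
G6pc chr11:101367466-101367715, plus strand: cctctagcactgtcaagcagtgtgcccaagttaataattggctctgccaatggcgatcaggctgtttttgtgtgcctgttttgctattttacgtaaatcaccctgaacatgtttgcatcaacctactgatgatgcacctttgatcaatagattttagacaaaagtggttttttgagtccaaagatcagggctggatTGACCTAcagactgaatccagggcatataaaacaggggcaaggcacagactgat
Slc2a2 chr3:28697653-28697902, plus strand: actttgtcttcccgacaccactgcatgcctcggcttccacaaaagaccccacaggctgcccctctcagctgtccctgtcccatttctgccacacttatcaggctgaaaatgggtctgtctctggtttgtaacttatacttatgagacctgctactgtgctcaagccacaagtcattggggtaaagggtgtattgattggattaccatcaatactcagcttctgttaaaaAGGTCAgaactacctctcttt
Pck1 chr2:173152823-173153072, plus strand: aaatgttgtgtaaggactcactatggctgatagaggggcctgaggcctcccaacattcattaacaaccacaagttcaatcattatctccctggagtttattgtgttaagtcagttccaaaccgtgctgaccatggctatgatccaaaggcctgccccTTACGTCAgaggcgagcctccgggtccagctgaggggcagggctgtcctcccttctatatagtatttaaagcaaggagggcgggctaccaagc
The capitals span the bases 54 to 48 before the start in G6pc, 21 to 16 in Slc2a2 and 93 to 86 in Pck1. A D-box, TTATGNAA, and a FOXO site, GTAAACA, were in none of the 7 windows and in 3.07% and 3.17% of all promoters. A match is a description of the letters and not of binding.

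Arrays had median raw signals of 245 to 341 units, with 34.8 to 40.2% of probes detected. The arrays were laid out on 3 slides, with slide 1 holding the DKO samples of ZT0 to ZT12, slide 2 the WT samples of ZT0 and ZT4 beside the DKO samples of ZT16 and ZT20, and slide 3 the WT samples of ZT8 to ZT20. No time had both genotypes on the same slide, so genotype and slide cannot be told apart at a single time. Of the targeted receptors, Nr1d1 was higher in DKO at 6 of 6 times, by 0.52 to 2.41 log2. Nr1d2 was higher at 4 times, by up to 1.87 log2, and lower at ZT8 (-0.39) and ZT12 (-0.89), with no overlap of arrays at either. The place of the probes relative to the deleted part was not given in the sources used here, and the signals therefore do not check the labels. All 9 hepatocyte markers were measured, with summed signals of 479183 to 497318 units in WT and 494137 to 510893 in DKO, while 0 of 7 kidney and adipose tissue markers were. Alb, 1 of 9 hepatocyte markers called in the daily mean, fell by 0.96 log2 (limma adjusted p = 0.0134), though the summed signal was not lower in DKO. Lyve1, 1 of 6 endothelial markers called, was higher by 0.86 log2 (limma adjusted p = 0.0490). Sox9, the only cholangiocyte marker measured, was higher by 0.995 log2 (limma adjusted p = 0.0214). It was dim, at 62 to 186 units in WT and 109 to 325 in DKO. The DKO ZT0 sample stood apart. Its summed signal for 6 Kupffer cell and macrophage markers was 18406.5 units, against 7357 to 10294 in the other DKO samples and 5290 to 8931 in WT. Its 3 measured neutrophil markers summed to 5752 units, against 664 to 1916 in the other DKO samples and 592 to 1076 in WT. Its 6 endothelial markers summed to 27377 units, against 17145 to 19851 in the other DKO samples and 17464 to 19940 in WT. The part of these cells in the results was not tested, and in whole liver fewer cells of a type and less RNA per cell cannot be told apart.

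The insulin receptor substrates rose in the DKO livers and the transporter Slc2a2 and the enzyme Pck1 fell. These 4 of the 9 genes passed the test of the daily mean at a limma adjusted p under 0.05, against 9.35% of all 7272 genes tested. Irs2 was 2.50-fold higher and Irs1 1.45-fold higher, where 4.33% of all genes were called higher. Pck1 was 1.48-fold lower and Slc2a2 1.68-fold lower, where 5.02% were called lower. With slide as a fixed or random block in the fit, 0 of these 4 calls were kept. With median scaling in place of quantile normalization, which moved the median of all genes to -0.20 log2, 2 of the 9 genes were called higher and 4 lower, where 186 of all genes were called higher and 1996 lower, against 315 and 365. The other 5, G6pc, Fbp1, Gys2, Ppp1r3b and Ppp1r3c, did not pass. At an unadjusted p under 0.05 in the limma fit, 5 of 9 passed, beside 28.7% of all genes. The median difference of the 9 genes was -0.15 log2, beside 0.02 over all genes, and the median of the absolute differences was 0.45 log2, beside 0.16. The 9 genes were chosen with earlier results of these data known. Their shares beside all genes, here and below, are therefore a description and no test of the pathway.

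**Figure D1:**
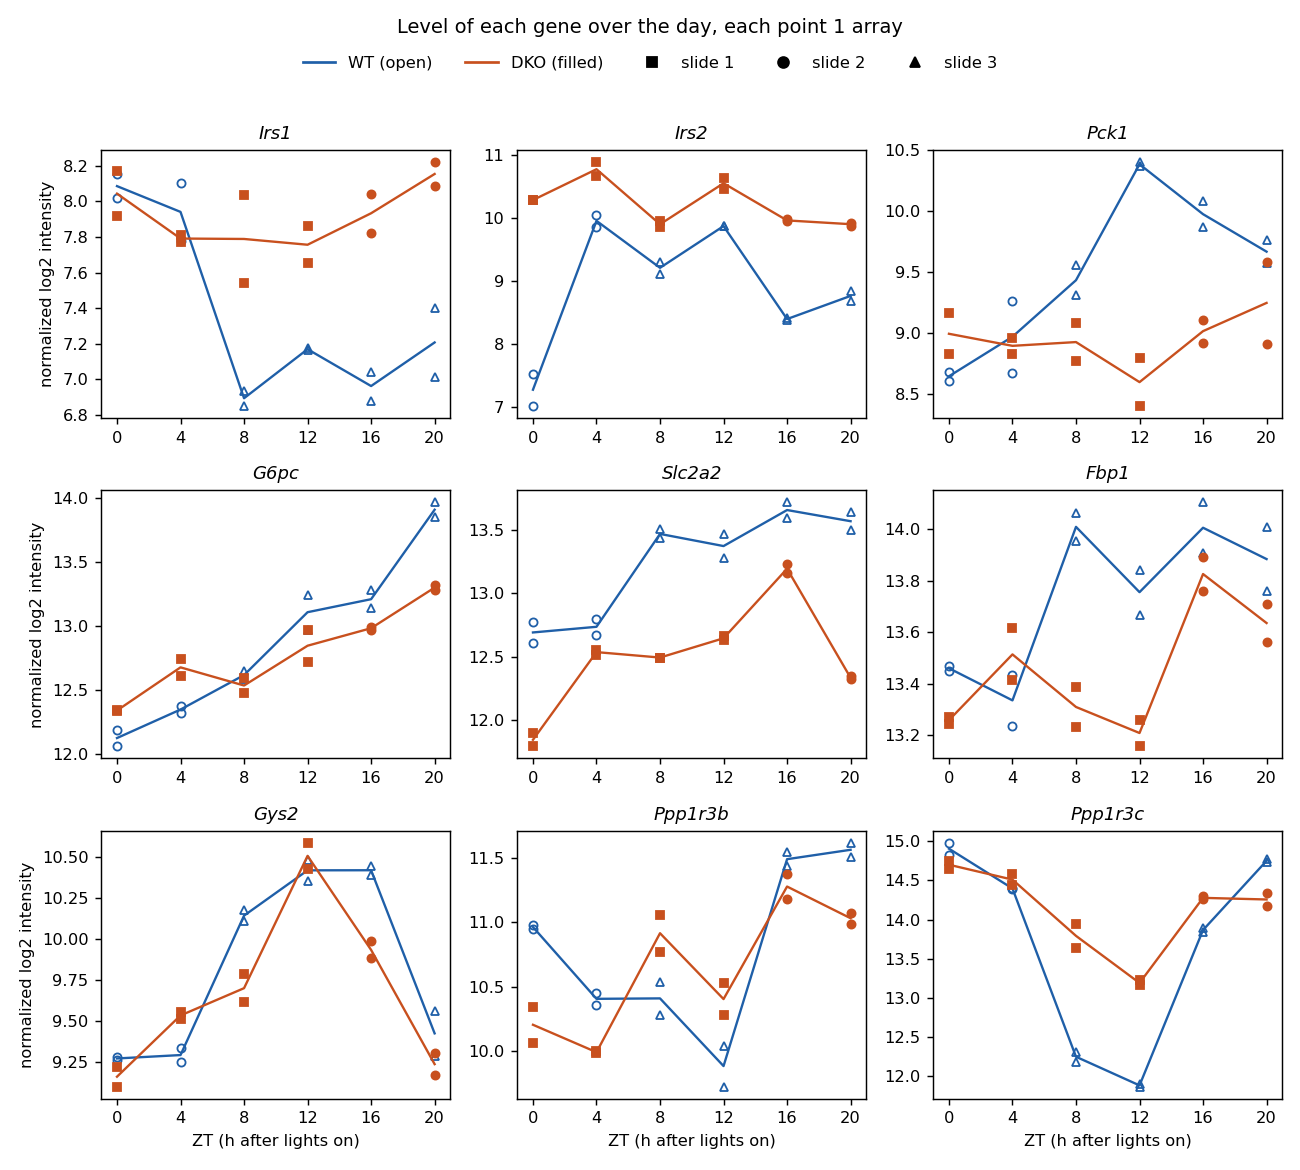
Normalized log2 intensity of each of the 9 genes against time of day (ZT, h), with 1 point per array, open for WT and filled for DKO, lines through the mean of the 2 arrays, and marker shapes for the 3 slides. Irs2 was above WT in DKO at every time, Slc2a2 below it at every time, and the Ppp1r3c trough at ZT12 was at 11.88 in WT and 13.19 in DKO.

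Irs2 encodes the docking protein that in mouse liver is known to be induced by fasting and lowered by insulin. In WT, Irs2 was at 7.27, 9.95, 9.21, 9.87, 8.39 and 8.76 from ZT0 to ZT20, on the normalized log2 intensity scale. In DKO it was at 10.29, 10.78, 9.90, 10.55, 9.96 and 9.90. The arrays of the 2 genotypes did not overlap at any of the 6 times, and DKO was higher at 6 of 6. The WT ZT0 sample was the low point, where the probe was detected on 1 of its 2 arrays, at 7.01 and 7.53. The difference was 3.01 log2 there (8.08-fold), 1.57 at ZT16, 1.14 at ZT20 and 0.68 to 0.82 at the remaining times. The daily mean difference was 1.32 ± 0.34 log2 (SE, n = 6 times per genotype, 95% interval 0.55 to 2.09), with a limma adjusted p of 0.0439. With an intensity trend and robust variances the adjusted p in limma was 0.0654. Without both ZT0 samples it was 0.997 with a limma adjusted p of 0.102, and the range over single times left out was 0.997 to 1.60 log2. The call was kept in 3 of 12 fits without 1 RNA sample, those without DKO ZT8, WT ZT4 or WT ZT20, with adjusted p from 0.0164 to 0.115 over the 12. On slide 2, which held both genotypes at different times, DKO minus WT was 1.32 log2. This gap came from WT ZT0 at 7.27, since WT ZT4 was at 9.95 and DKO ZT16 and ZT20 at 9.96 and 9.90. With slide as a fixed block the difference was 1.09 ± 1.14 log2 (limma adjusted p = 0.762) and with slide as a random block it was 1.301 (0.170).

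Irs1 encodes the other main docking protein of the receptor. In WT, Irs1 was at 8.09, 7.94, 6.89, 7.17, 6.96 and 7.21 (normalized log2, ZT0 to ZT20). The DKO values were 8.04, 7.79, 7.79, 7.76, 7.93 and 8.15. The WT level was high at ZT0 and ZT4 and low at the later times, while the 6 DKO values lay within 0.40 log2 of each other. At ZT0 and ZT4 the arrays of the genotypes overlapped, and at the 4 later times DKO was higher by 0.90, 0.59, 0.97 and 0.95 log2 with no overlap. The daily mean difference was 0.53 ± 0.13 log2 (SE, n = 6 times per genotype, 95% interval 0.23 to 0.84, limma adjusted p = 0.0381). It was 0.23 with no background correction (limma adjusted p = 0.0597) and 0.24 with the authors' values (0.0540), and the call ended under both.

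The low WT samples of Irs1 were those of slide 3 and the high ones those of slide 2, with means of 7.06 and 8.01. A WT shift between these slides of at least the 0.96 log2 seen for Irs1 occurred in 2.56% of genes. With slide as a fixed block the Irs1 difference reversed to -0.10 ± 0.26 log2 (limma adjusted p = 0.923), and within slide 2, between different times, DKO minus WT was 0.03 log2. With slide as a random block it was 0.49 (0.167). The Irs1 call ended when any single time was left out, with limma adjusted p of 0.0651 to 0.147, and was kept only without WT ZT0, WT ZT4 or WT ZT12 among the 12 fits that left out 1 RNA sample.

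Pck1 encodes the cytosolic PEPCK, an early committed enzyme of glucose production from lactate and amino acids and a classic target of glucagon and insulin. In WT, Pck1 was at 8.65, 8.97, 9.44, 10.38, 9.98 and 9.67 (normalized log2, ZT0 to ZT20). In DKO it was at 8.997, 8.90, 8.93, 8.60, 9.02 and 9.25. WT reached its highest level at ZT12, where DKO had its lowest. The difference there was -1.78 log2 (3.44-fold lower), it was -0.96 at ZT16 and -0.51 at ZT8, and at ZT0 DKO was higher by 0.35 log2. Arrays of the genotypes overlapped at ZT4 and ZT20. The daily mean fell by 0.57 ± 0.12 log2 (SE, n = 6 times in each genotype, limma adjusted p = 0.0191), lower at 5 of 6 times.

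The ZT8 and ZT12 samples of each genotype shared a slide, so the step between them did not cross slides. Pck1 moved by 0.95 log2 from ZT8 to ZT12 in WT and by -0.33 in DKO. A gap between genotypes in this step at least as wide as that of 1.28 log2 was seen for 1.72% of genes. On slide 2, between different times, DKO minus WT was 0.32 log2, the reverse of the daily mean. The block fits gave -0.19 (fixed, limma adjusted p = 0.869) and -0.54 (random, 0.101). The Pck1 call was kept in 11 of 12 fits without 1 RNA sample and ended without DKO ZT12, with adjusted p of 0.0273 to 0.0524 over the 12. Among single times left out it was kept only without ZT0, with adjusted p of 0.0495 to 0.110 over the 6.

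Slc2a2 encodes GLUT2, the high-capacity transporter that carries glucose both into and out of hepatocytes. In WT, Slc2a2 was at 12.69, 12.74, 13.47, 13.38, 13.66 and 13.57 (normalized log2, ZT0 to ZT20, brightest of 3 probes). In DKO it was at 11.84, 12.54, 12.49, 12.65, 13.20 and 12.33. For this probe the arrays of the genotypes did not overlap at any time and DKO was lower at 6 of 6. Its difference was widest at ZT20, -1.24 log2 (2.36-fold lower), and narrowest at ZT4, -0.20. The daily mean fell by 0.74 ± 0.17 log2 (SE, n = 6 times in each genotype, limma adjusted p = 0.0267). The other 2 probes gave -0.59 ± 0.22 (adjusted p = 0.125, lower at 6 of 6 times) and -0.38 ± 0.21 (0.276, lower at 5 of 6), both in limma fits over all genes, and neither passed. For both of them the arrays of the genotypes overlapped at ZT4, and the difference was widest at ZT8. At ZT20 they were less than 2-fold apart, at 10.47 in WT and 9.63 in DKO for the first and 11.17 and 10.47 for the second. Profiles of the 3 probes correlated at 0.88 to 0.98 over the 12 samples.

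As with Irs1, the WT values of Slc2a2 went with the slide, with a mean of 12.71 on slide 2 and 13.52 on slide 3. A shift that wide was reached by 4.07% of genes. The WT shift, in absolute log2, was also wider for Ppp1r3c (1.46), Pck1 (1.05), G6pc (0.98) and Gys2 (0.82). Those were reached by 0.80%, 1.90%, 2.38% and 3.84% of genes. It was 0.52 for Fbp1, 0.45 for Irs2 and 0.15 for Ppp1r3b. The WT samples of these slides were also of different times, so slide and time cannot be told apart. The Slc2a2 difference reversed to 0.33 ± 0.37 log2 with slide as a fixed block (limma adjusted p = 0.784). It was 0.050 between the genotypes on slide 2, at different times. It was -0.66 with slide as a random block (0.143). From ZT16 to ZT20, a step within 1 slide in each genotype, the brightest probe moved by -0.09 log2 in WT and -0.86 in DKO. A gap that wide was reached by 7.37% of genes. The gap was narrower for the other 2 probes, with WT going from 11.01 to 10.47 and from 11.71 to 11.17. In DKO they went from 10.43 to 9.63 and from 11.39 to 10.47. Among single RNA samples left out the Slc2a2 call was kept without DKO ZT4, DKO ZT16, WT ZT0, WT ZT4 or WT ZT12 and ended in the other 7 fits, with adjusted p of 0.0161 to 0.0731 over the 12. Among single times left out it was kept only without ZT4.

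Without the DKO ZT0 sample that stood apart, 1 of the 9 genes was called, Pck1 (-0.53 log2, limma adjusted p = 0.0420). The size of the other 3 differences stayed near that with it, at 0.53 for Irs1 (limma adjusted p = 0.0705), 1.32 for Irs2 (0.0812) and -0.66 for Slc2a2 (0.0569).

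**Figure D2:**
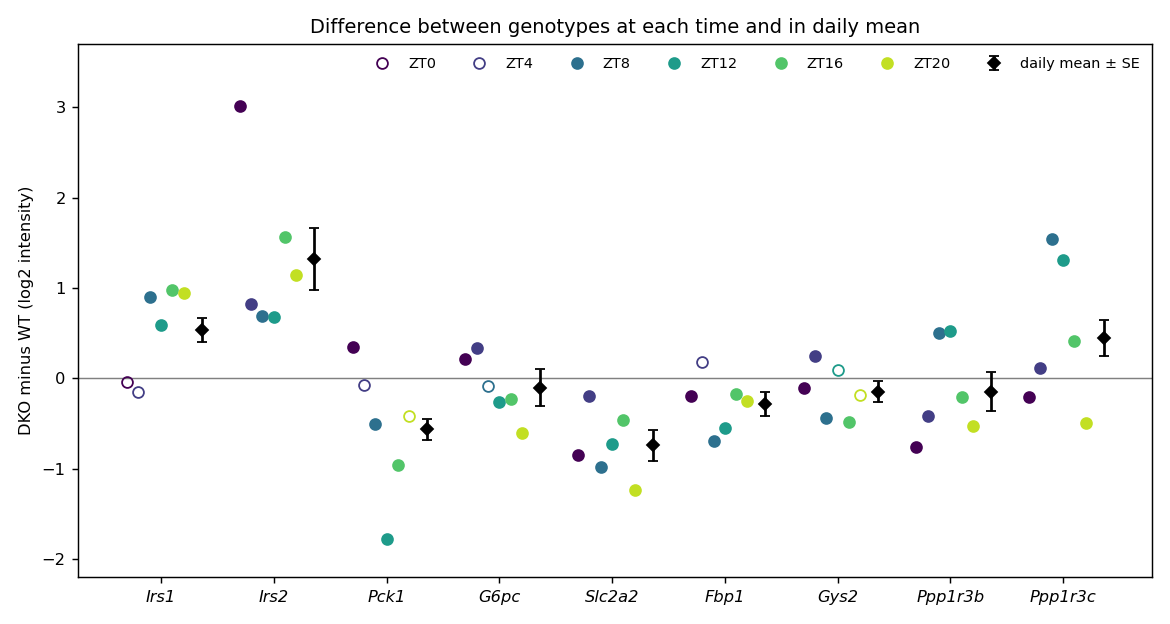
DKO minus WT difference (log2) of each gene at each of the 6 times, filled where the arrays of the genotypes do not overlap and open where they do, with the daily mean difference and its SE as black diamonds. The differences of Irs2 lie from 0.68 to 3.01 and those of Slc2a2 from -1.24 to -0.20, while those of Ppp1r3c lie on both sides of 0, from -0.49 to 1.54.

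G6pc and Fbp1, the enzymes of the last steps of glucose production, did not pass for the daily mean. In WT, G6pc was at 12.12, 12.34, 12.61, 13.11, 13.21 and 13.91 (normalized log2, ZT0 to ZT20). The DKO levels were 12.34, 12.67, 12.53, 12.84, 12.98 and 13.30. Both genotypes had their lowest level at ZT0 and their highest at ZT20, with a span of 1.78 log2 in WT and 0.96 in DKO. In each genotype these times were on different slides. DKO was above WT at ZT0 and ZT4 and below it at ZT12, ZT16 and ZT20 with no overlap of arrays, and the daily mean difference was -0.11 ± 0.20 log2 (limma adjusted p = 0.773). For Fbp1, WT was at 13.46, 13.34, 14.01, 13.76, 14.01 and 13.88 and DKO at 13.26, 13.51, 13.31, 13.21, 13.83 and 13.64. Fbp1 was lower in DKO at 5 of 6 times, by up to 0.70 log2 at ZT8, with a daily mean difference of -0.28 ± 0.13 log2 (limma adjusted p = 0.191).

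Among the glycogen genes, none passed for the daily mean, and the genotypes differed at single times. Ppp1r3c encodes PTG, the targeting subunit that binds phosphatase 1, glycogen synthase and glycogen phosphorylase together. In WT, Ppp1r3c was at 14.90, 14.40, 12.25, 11.88, 13.87 and 14.75 (normalized log2, ZT0 to ZT20). The DKO values were 14.70, 14.51, 13.79, 13.19, 14.28 and 14.26. The WT level thus spanned 3.02 log2 (8.11-fold) over the day and the DKO level 1.51 log2, with the lowest value at ZT12 in both. DKO was 2.91-fold higher at ZT8 and 2.47-fold higher at ZT12, 1.33-fold higher at ZT16 and lower by 0.49 log2 at ZT20, with no overlap of arrays at any time. The daily mean difference was 0.45 ± 0.20 log2 (limma adjusted p = 0.174).

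Ppp1r3b encodes the hepatic targeting subunit of phosphatase 1, through which glycogen phosphorylase restrains glycogen synthesis. In WT, Ppp1r3b was at 10.96, 10.41, 10.41, 9.88, 11.49 and 11.56 (normalized log2, ZT0 to ZT20). The DKO levels were 10.20, 9.99, 10.91, 10.40, 11.28 and 11.03. DKO was higher at ZT8 and ZT12, by 0.50 and 0.52 log2, and lower at the other 4 times, with no overlap of arrays at any time. The lowest level was at ZT12 in WT and at ZT4 in DKO. The daily mean difference was -0.15 ± 0.21 log2 (limma adjusted p = 0.684).

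Gys2 encodes the liver glycogen synthase. In WT, Gys2 was at 9.27, 9.29, 10.14, 10.42, 10.42 and 9.43 (normalized log2, ZT0 to ZT20). DKO values were 9.16, 9.54, 9.70, 10.51, 9.94 and 9.24. The level spanned 1.15 log2 over the day in WT, between samples on different slides, and 1.35 in DKO. It was high at ZT12, where the arrays of the genotypes overlapped, as they did at ZT20. The largest differences were -0.49 log2 at ZT16 and -0.44 at ZT8, and the daily mean difference was -0.15 ± 0.12 log2 (95% interval -0.42 to 0.12, limma adjusted p = 0.435).

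A difference of at least 2-fold with no overlap of arrays was seen in 7 of the 54 pairs of gene and time, against 4.71% of such pairs over all genes. These were Irs2 at ZT0, ZT16 and ZT20, Pck1 at ZT12, Slc2a2 at ZT20 (only by its brightest probe) and Ppp1r3c at ZT8 and ZT12. They fell in 4 of the 9 genes, where 16% of all genes had at least 1 such time. The arrays of the genotypes did not overlap in 46 of the 54 pairs, beside 63.6% over all genes. At ZT0, ZT8, ZT12, ZT16 and ZT20 the share of all genes higher in DKO by this measure was 4.83%, 2.6%, 2.61%, 1.82% and 2.08%, and lower it was 3.2% at ZT12 and 2.39% at ZT20. DKO arrays lay wholly above WT at some times and wholly below at others for 5 of the 9 genes, Pck1, G6pc, Gys2, Ppp1r3b and Ppp1r3c, and for 51% of all genes. Irs2 and Slc2a2 (by its brightest probe) were the 2 of 9 genes with the same sign at all 6 times, beside 20.2% of all genes.

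A 24 h cosine fitted to each genotype gave a daily amplitude, the distance from the mean to the peak. Ppp1r3c was the 1 gene of the 9 that passed for rhythm in WT, where 0.179% of all genes did. In WT it peaked at ZT 22.6 with an amplitude of 1.62 ± 0.20 log2 (SE, limma adjusted p = 0.0319). The DKO fit peaked at ZT 23.6 with an amplitude of 0.62 ± 0.20 log2 (limma adjusted p = 0.612). The test of the difference in rhythm gave a limma adjusted p of 0.630 for Ppp1r3c, and an unadjusted p of 0.0149 in the limma fit. The WT samples of slide 3 alone, from ZT8 to ZT20, spanned 2.87 log2 for this gene, and the DKO samples of slide 1, from ZT0 to ZT12, spanned 1.51. With slide as a fixed block the WT amplitude was 1.44 (limma adjusted p = 0.238) and the DKO amplitude 0.66. The WT rhythm call of Ppp1r3c was kept without ZT4 or ZT16 and ended without ZT0, ZT8, ZT12 or ZT20, with adjusted p of 0.0261 to 0.317 over the 6 fits. It was kept without DKO ZT16, WT ZT4 or WT ZT16 among the 12 fits that left out 1 RNA sample.

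Gys2 did not pass for rhythm in either genotype. The WT fit peaked at ZT 12.6 with 0.70 ± 0.12 log2 (limma adjusted p = 0.0855), and the DKO fit at ZT 11.9 with 0.59 ± 0.12 (0.417). For Pck1 the WT fit peaked at ZT 13.8 with 0.79 ± 0.12 log2 (limma adjusted p = 0.0665), and the DKO amplitude was 0.21 ± 0.12 (0.806). The test of the difference in rhythm gave a limma adjusted p of 0.387 for Pck1. G6pc had fitted amplitudes of 0.67 in WT and 0.32 in DKO, and Ppp1r3b 0.74 and 0.48, with WT peaks at ZT 16.5 and ZT 20.0.

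None of the 9 genes passed for rhythm in DKO, where 0.055% of all genes did, or for a difference in rhythm, where 0% did. At an unadjusted p under 0.05 in the limma fit, 6 of 9 passed for WT rhythm, beside 13.8% of all genes, 2 for DKO rhythm, beside 7.38%, and 2 for a difference, beside 6.22%. The fitted amplitude was lower in DKO for 9 of 9 genes, beside 58.8% of all genes. With slide as a fixed block it was lower for 6 of 9, beside 49.5% of all genes. The median WT amplitude of the 9 genes was 0.70 log2, beside 0.19 over all genes, and the median DKO amplitude was 0.32, beside 0.16.

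**Figure D3:**
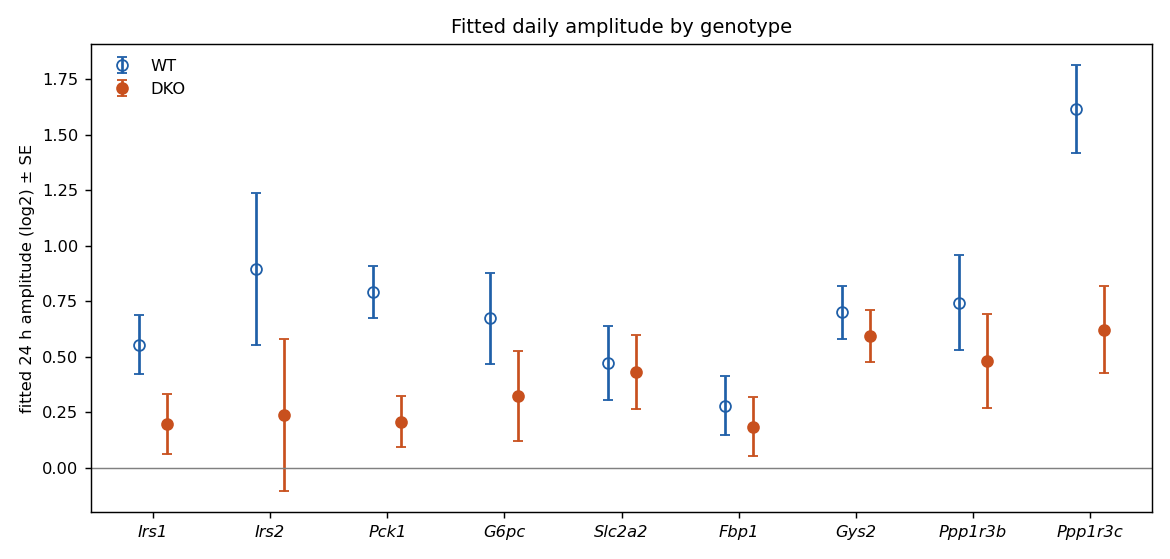
Fitted 24 h amplitude (log2) of each gene with its SE, open for WT and filled for DKO. All 9 DKO points lie below the WT points, and the error bars do not overlap for Irs1, Pck1 and Ppp1r3c. The bars are no test, and the test of a difference in rhythm gave a limma adjusted p of 0.821 for Irs1. With slide as a fixed block the order reversed for Irs1, with amplitudes of 0.096 in WT and 0.18 in DKO.

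The 3 steps of 4 h that lay within a slide in each genotype compared the time courses without crossing slides. From ZT0 to ZT4, Irs2 moved by 2.68 log2 in WT and by 0.49 in DKO, and a gap of that width was seen for 0.701% of genes. The WT step starts from the ZT0 sample in which 1 of 2 arrays detected the Irs2 probe, so its size rests on a signal near background. In the same step Slc2a2 moved by 0.04 in WT and 0.69 in DKO by its brightest probe, a gap reached by 18.5% of genes. The gap was narrower for its other 2 probes, with WT rising from 9.48 to 10.01 and from 10.24 to 10.78. In DKO they rose from 8.98 to 9.99 and from 9.96 to 10.83. The DKO steps from ZT0 start from the DKO ZT0 sample that stood apart in its cell markers. From ZT16 to ZT20, Ppp1r3c moved by 0.88 log2 in WT and -0.02 in DKO, a gap reached by 4.90% of genes. Gys2 moved in the same direction in both genotypes, by -0.995 in WT and -0.70 in DKO. From ZT8 to ZT12 the steps of Irs2, 0.66 and 0.65 log2, and of Ppp1r3b, -0.52 and -0.51, were almost the same in both genotypes. Gaps of at least 1 log2 were thus seen for Irs2 in the first step and Pck1 in the middle step, where 6.61% and 3.3% of all genes had one, and for none of the 9 genes in the last step, where 3.63% had one. These are differences between single samples, with no test.

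**Figure D4:**
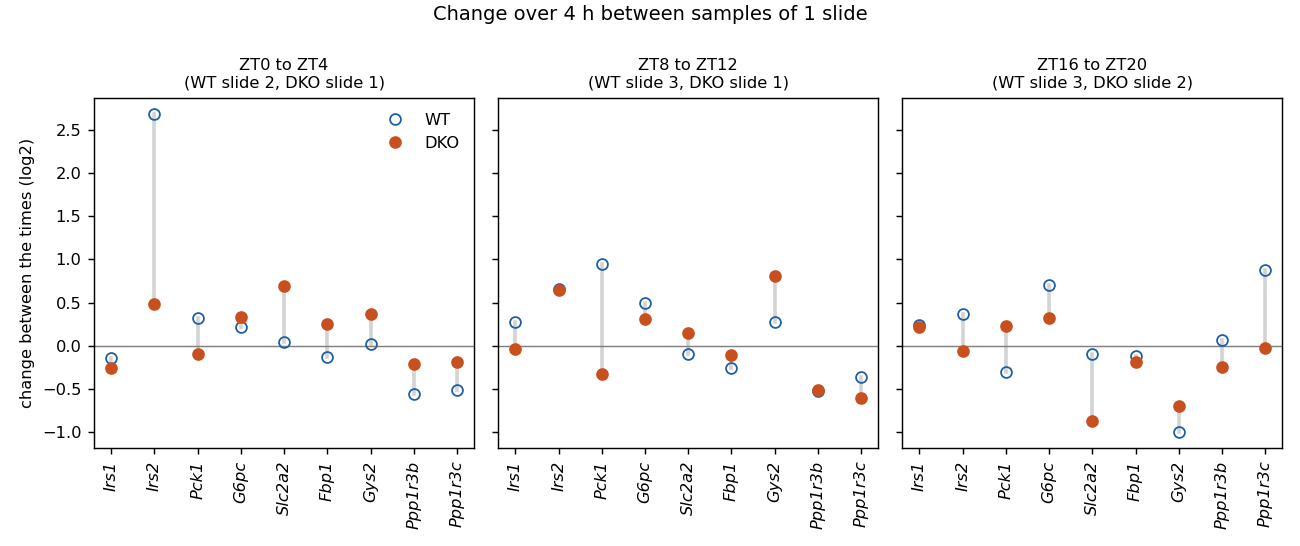
Change in normalized log2 intensity over 4 h between samples that shared a slide, open for WT and filled for DKO, with a grey line for the gap between genotypes. The widest gaps are those of Irs2 from ZT0 to ZT4 (2.68 in WT, from a ZT0 sample detected on 1 of 2 arrays, and 0.49 in DKO) and of Pck1 from ZT8 to ZT12 (0.95 in WT, -0.33 in DKO).

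Of 116 other genes listed for these pathways, 100 were on the array and 72 passed the filter. In the daily mean 5 of the 72 rose, 5 fell and 62 did not pass, beside 9.35% of all genes called either way. This split did not hold with median scaling, under which 1 of the 72 was called higher (Akt2) and 27 lower, and Crem, Grb10, Pfkl and Ppp1ca were not called. The median difference of the 72 was -0.01 log2, beside 0.02 over all genes. None of the 72 passed for rhythm in WT or DKO or for a difference in rhythm, where 0.179%, 0.055% and 0% of all genes did.

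In insulin signalling, 2 of 22 measured genes rose and none fell. Akt2, the AKT kinase that carries most of the insulin signal in liver, was higher by 0.72 ± 0.19 log2 (limma adjusted p = 0.04996). This was just inside the threshold, and Akt2 was higher at 5 of 6 times. Its signal was dim, at 5.80 to 6.98 in WT and 6.50 to 7.34 in DKO (normalized log2). Irs2 in WT ZT0, near background, was at 7.27. The Akt2 call ended in 14 of 24 fits without 1 array, 11 of 12 without 1 RNA sample and 5 of 6 without 1 time, and it ended under either slide block. It was 0.23 with no background correction and 0.25 with the authors' values, and was not called under either (limma adjusted p = 0.0819 and 0.0757). Grb10, an adaptor that inhibits the insulin receptor, was higher by 0.48 ± 0.12 (limma adjusted p = 0.0348, 6 of 6 times), but was at -0.24 with slide as a fixed block. In glucose production, 1 of 20 rose and 2 fell. Crem, a transcription factor of the cyclic AMP response, was higher by 0.53 ± 0.11 (limma adjusted p = 0.0228). The Crem call was kept in 7 of 12 fits without 1 RNA sample and 0 of 6 without 1 time. It ended with slide as a random block (limma adjusted p = 0.0824). Gpd1, the cytosolic glycerol phosphate dehydrogenase that feeds glycerol carbon into glucose production, was at 10.37, 9.92, 9.48, 9.67, 9.80 and 10.20 in WT (normalized log2, ZT0 to ZT20). In DKO, Gpd1 was at 9.13, 9.07, 9.05, 8.86, 9.38 and 9.11, below WT at 6 of 6 times with no overlap of arrays. It fell by 0.81 ± 0.10 log2 (limma adjusted p = 0.00217). The Gpd1 difference was -0.80 with slide as a random block (limma adjusted p = 0.0144) and -0.74 with slide fixed (0.438). On slide 2 it was -0.90 between DKO at ZT16 and ZT20 and WT at ZT0 and ZT4, which mixes genotype with time. Mdh2, mitochondrial malate dehydrogenase, fell by 0.52 ± 0.11 (limma adjusted p = 0.0214). It was higher by 0.15 with slide as a fixed block and by 0.28 within slide 2, between different times.

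In glucose uptake and glycolysis, 1 of 16 rose and 3 fell. Pfkl, the liver phosphofructokinase, was higher by 0.46 ± 0.10 log2 (limma adjusted p = 0.0199), but by 0.078 with slide as a fixed block (0.929). The pyruvate dehydrogenase kinases Pdk1 and Pdk2, which switch off the entry of pyruvate into the citric acid cycle, fell by 0.73 ± 0.15 and 0.62 ± 0.14, and Pdha1, a subunit of the enzyme they inhibit, fell by 0.41 ± 0.09 (limma adjusted p = 0.0204, 0.0279 and 0.0201). Pdk1 and Pdk2 reversed to 0.02 and 0.37 with slide as a fixed block. The Pdk2 signal was dim, at 7.23 to 8.01 in WT and 6.41 to 7.38 in DKO (normalized log2). In the glycogen list, 1 of 14 rose and none fell. The riser was Ppp1ca, a catalytic subunit of the phosphatase that Ppp1r3b and Ppp1r3c bring to glycogen, by 0.33 ± 0.08 log2 (limma adjusted p = 0.0329). The Ppp1ca call was kept in 1 of 12 fits without 1 RNA sample and 0 of 6 without 1 time. It ended with slide as a random block (limma adjusted p = 0.130), and within slide 2, between different times, the difference was 0.083 log2. Socs3, an inhibitor of insulin signalling named here after its value was seen, had the largest difference of the 72, 1.06 ± 0.30 log2. It did not pass (limma adjusted p = 0.0573). From ZT0 to ZT20 the Socs3 differences were 3.11, 2.28, 0.54, -0.42, -0.27 and 1.12 log2. The widest was that of the DKO ZT0 sample that stood apart in its cell markers.

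**Figure D5:**
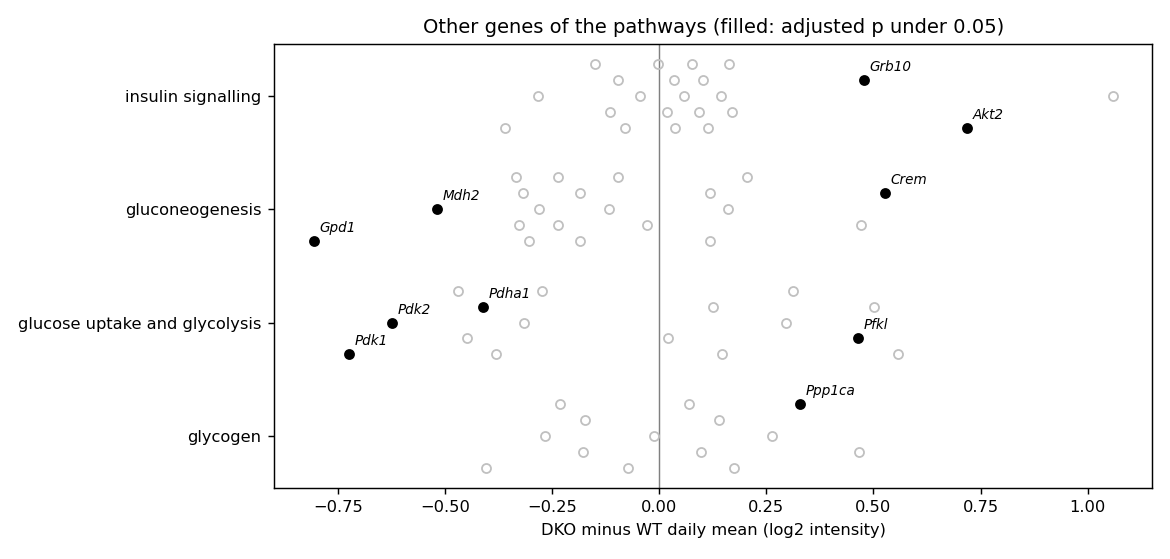
DKO minus WT daily mean difference (log2) of the 72 measured genes of the 4 pathway lists, filled and named where the limma adjusted p was under 0.05. The 10 named genes run from -0.81 (Gpd1) to 0.72 (Akt2), and the 62 others did not pass.

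Among themselves the 9 genes varied in several patterns, described by Pearson's r over the 12 samples, which share genotype, time and slide. Slc2a2 and Fbp1 were most alike (0.84), and Irs1 ran opposite to Slc2a2 (-0.83) and Pck1 (-0.75). Gys2 and Ppp1r3c ran opposite to each other (-0.77), with Gys2 high around ZT12 where Ppp1r3c was lowest. Irs2 had r between -0.57 and 0.26 with the other 8.

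Over all genes, the profiles most like each member were taken as the 2 with the highest r over the same 12 samples. For Irs1 these were Fam228b (0.97) and Iapp (0.96), and for Irs2 they were Pias1 (0.94) and Fntb (0.94). Pck1 was most like Tor1b (0.94) and Iqgap2 (0.92), and G6pc was most like Colec10 (0.92) and Frk (0.91). Slc2a2 went with Acsm5 (0.96) and Eif3j1 (0.95), and Fbp1 with Cul4a (0.93) and Sirt3 (0.93). The glycogen genes went with Ctage5 (0.90) and Map2k3 (0.88) for Gys2, Cyp2b10 (0.90) and Gm14325 (0.90) for Ppp1r3b, and Sgpl1 (0.93) and Clpx (0.93) for Ppp1r3c. None of these 18 genes is one of the 9.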

How the data were processed

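Trizol-extracted, DNase-treated RNA was made into biotinylated cRNA, per the labels' protocols. GenomeStudio is named in the submitters' processing notes, without a version. The deposited intensity of a probe is on a linear scale, with no normalization between arrays, and a detection p-value compares it with negative controls, per the file headers. A deposited table of processed intensity values, on a linear scale with its normalization not stated, served as an alternative. The genome build was not given in the sources used here.

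Intensities were background-corrected (normexp, offset 16), quantile normalized and set on the log2 scale in limma 3.58.1 (R 4.3.3). Probes were kept when both arrays of 2 or more of the 12 genotype and time groups detected them (p under 0.01), 10243 of 25697, and the brightest per gene symbol was used. Symbols came from the platform annotation, in which 23978 probes had 1 symbol, 0 had several and 1719 had none. The probes used were ILMN_1248206 (Irs1), ILMN_3144164 (Irs2), ILMN_1213632 (Pck1), ILMN_1245103 (G6pc), ILMN_2861259 (Slc2a2), ILMN_2785586 (Fbp1), ILMN_2924504 (Gys2), ILMN_2626098 (Ppp1r3b) and ILMN_2667091 (Ppp1r3c). The 2 arrays of a sample were averaged. They correlated at 0.988 to 0.992 over all 25697 probes, and the number of samples limits the precision.

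A mean and a 24 h harmonic per genotype were fitted to the 12 averages in limma, with 6 residual and 3.31 prior degrees of freedom. Benjamini-Hochberg adjustment ran over all 7272 genes, with a threshold of 0.05. At single times, with 1 sample per genotype, a difference was counted where it reached 1 log2 and the arrays did not overlap, with no test. The fit was tested on simulated data. The members and gene lists were chosen with earlier results of these data known. Named pathway genes are those that passed, up to 4 per list, and for each member the 2 genes with the highest correlation. The alternatives were other background corrections and scalings, the deposited processed values, other filters and probes, arrays as separate samples, slide as a fixed or random block, other variance models, time as a factor, each genotype alone, and leaving out times, samples or arrays. The 4 h steps within slides were added after seeing the data. Replicate numbers did not pair samples, since the correlation of same-numbered arrays' deviations from their group means was -0.05 to 0.05 over 66 pairs of groups.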

Additional observations from a re-analysis of the deposited data

Results flagged for a closer look

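5 of the 9 genes had DKO arrays wholly above WT at some times and wholly below at others, which 51% of all genes did, so this is near the background. The gap between the most opposite times was 2.13 log2 for Pck1, higher in DKO at ZT0 and lower at ZT8, ZT12 and ZT16. It was 2.04 for Ppp1r3c, higher from ZT4 to ZT16 and lower at ZT0 and ZT20. It was 1.28 for Ppp1r3b, higher at ZT8 and ZT12 and lower at the other 4 times. It was 0.94 for G6pc, higher at ZT0 and ZT4 and lower from ZT12 to ZT20. It was 0.73 for Gys2, higher at ZT4 and lower at ZT0, ZT8 and ZT16. The difference between times was not tested for itself, and the limma test of a difference in rhythm passed for none of the 5 (unadjusted p of 0.00112 for Pck1 and 0.0149 for Ppp1r3c). The genotypes were on different slides at each of these times.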

How the results depend on the processing

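The 4 calls among the 9 genes became 0 with slide as a fixed or a random block. They became 2 with no filter on dim probes (Pck1 and Slc2a2) and 2 with time as a factor (Irs2 and Slc2a2). They became 3 with no background correction or the authors' values (without Irs1) and 3 with an intensity trend (without Irs2). With probes detected on all 24 arrays they were also 3, since Irs2, detected on 23, was not tested. They were 0 to 4 when a time, sample or array was left out. The 1 gene rhythmic in WT became 2 with an offset of 50, no background correction, the authors' values or probes detected on all 24 arrays, 3 with median scaling or an intensity trend, 0 with either slide block or each genotype alone, and 0 to 2 in fits that left something out. With arrays as separate samples and the RNA sample as a random block, 6 were rhythmic in WT, 1 in DKO and 1 differed in rhythm. With the replicate block, which treats arrays as independent and does not pair the samples, these were 8, 2 and 2. Fits that left something out kept 0 genes rhythmic in DKO and 0 differing in rhythm. The 10 pathway genes changed in daily mean became 28 with median scaling (1 higher and 27 lower), 16 with the RNA sample as a block, 33 with the replicate block, 0 with slide fixed, 1 with slide random (Gpd1) and 1 to 11 in fits that left something out. The 0 pathway genes rhythmic in WT became 2 with median scaling, 6 with the RNA sample as a block and 21 with the replicate block, and were 0 whatever was left out. Median scaling moved the median of all genes from 0.02 to -0.20 log2, and Fbp1 (-0.51) and Gys2 (-0.38) were then also called. Daily mean differences that reversed with slide fixed were those of Irs1 (-0.10), G6pc (1.02), Slc2a2 (0.33), Fbp1 (0.58), Ppp1r3b (0.92), Grb10 (-0.24), Mdh2 (0.15), Pdk1 (0.021) and Pdk2 (0.37). Within slide 2, between different times, those of Pck1 (0.32), G6pc (0.91), Slc2a2 (0.050), Fbp1 (0.33), Gys2 (0.30), Ppp1r3b (0.47), Ppp1r3c (-0.38), Grb10 (-0.17) and Mdh2 (0.28) had the opposite sign. G6pc reversed to 0.010 without DKO ZT0 and 0.099 without WT ZT20 (range without 1 sample -0.27 to 0.099), and Ppp1r3b to 0.016 without DKO ZT12 (-0.32 to 0.016). The cause was not tested. The 7 pairs of gene and time at least 2-fold apart were 6 to 9 under the other corrections and scalings.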
